A study of Mus musculus with 18 samples.

Results

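Spectrins and ankyrins form the membrane skeleton that holds channels and adhesion proteins in place in nerve cells. The genes described here are 3 spectrins and 3 ankyrins of axon and membrane: Sptbn4, Sptan1, Sptbn1, Ank1, Ank2 and Ank3, 6 of the 22063 genes in the count table of the hippocampus. They were chosen by symbol as a family, starting from Sptbn4, which had been picked from an earlier analysis of these same libraries for its small p in S-V against Control. All 6 passed the filter on low counts, which left 14763 genes. Comparisons of the 6 genes with Control are therefore given as descriptions, without a test.

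RNA of the hippocampus, which the brain needs to find its way in space, was sequenced from mice in 18 libraries. Control (n = 3) is named a blank control in the labels. S-V (n = 5) was turned in 1 direction with vision blocked, D+V (n = 5) was turned in both directions with vision free, and D-V (n = 5) was turned in both directions with vision blocked, which the labels call the Coriolis illusion. The study set out to provoke vestibular disorientation by turning about several axes, and the tissue was taken straight afterwards. The sources used here do not give strain, age or sex of the mice, nor do they tie a library to an animal. The p-values therefore measure only how these libraries spread, which may be technical.

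Spectrin is a flexible rod built from an alpha and a beta chain, and rods joined by short actin filaments form a lattice under the membrane, which in axons has a regular ring-like spacing. Ankyrins are adaptors that tie beta spectrin to membrane proteins. At the axon initial segment, where action potentials start, ankyrin-G and beta-IV spectrin gather voltage-gated sodium channels, potassium channels and the adhesion molecules neurofascin and NrCAM. Sptan1 encodes alpha-II spectrin, the alpha chain of most cells outside blood. Sptbn1 encodes beta-II spectrin, the main beta chain along axons and in many other cells, and Sptbn4 encodes beta-IV spectrin, the beta chain of initial segments and nodes of Ranvier. Ank1 encodes ankyrin-R, first known from red blood cells, Ank2 encodes ankyrin-B of axons and intracellular transport, and Ank3 encodes ankyrin-G.

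The 6 genes differ in base composition, and the levels of 4 of them, Sptbn4, Sptbn1, Ank2 and Ank3, moved with the base composition favoured by a library, so base composition is given first. In the GENCODE M21 models of the build GRCm38, the transcript of Sptbn4 was 63.7% G and C, at the 99.2 percentile of the genes tested, whose median was 50.3%. Ank1 was at 57.2%, Sptan1 at 52.3%, Ank2 at 49.2%, Ank3 at 48.3% and Sptbn1 at 47.6%. At the third codon position of the longest open reading frame the share of G and C was 76.3% in Sptbn4 and 60.2% in Sptbn1, and over the ankyrins it ran from 50.4% in Ank2 to 66.7% in Ank1. Over the aligned proteins of the beta chains Sptbn4 and Sptbn1 53.1% of residues were identical.

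The stretch of 40 codons most alike among the proteins of the 3 ankyrins is shown 5′ to 3′ on the coding strand. It shows how a largely shared protein sequence is written with different base composition. The stretch runs from coding bases 1201 to 1320 of Ank1, 1183 to 1302 of Ank2 and 1138 to 1257 of Ank3. Capitals mark the 21 positions where Ank1 has G or C and at least 1 of the others has A or T.
Ank1: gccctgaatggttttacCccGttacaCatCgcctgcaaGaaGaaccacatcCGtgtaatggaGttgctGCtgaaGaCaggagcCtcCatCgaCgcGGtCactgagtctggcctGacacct
Ank2: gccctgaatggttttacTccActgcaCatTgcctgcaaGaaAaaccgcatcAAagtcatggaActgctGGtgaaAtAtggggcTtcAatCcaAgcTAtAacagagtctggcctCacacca
Ank3: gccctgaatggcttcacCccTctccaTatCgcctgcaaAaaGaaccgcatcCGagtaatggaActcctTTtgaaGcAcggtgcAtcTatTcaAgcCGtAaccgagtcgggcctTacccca

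In this stretch 34 of 40 codons give the same amino acid in all 3 ankyrins, and the share of G and C was 55.0% in Ank1, 53.3% in Ank3 and 47.5% in Ank2. Of the 21 capitals, 16 fall at the third position of a codon. In codons where the amino acids differ, capitals also mark differences between the proteins. Over the aligned proteins Ank2 and Ank3 shared 60.6% of residues, Ank1 and Ank3 57.2%, and Ank1 and Ank2 52.0%.

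In the same annotation Sptbn4 lies on the reverse strand of chromosome 7 from 27356383 to 27447686, Sptan1 on the forward strand of chromosome 2 from 29965560 to 30031451, and Sptbn1 on the reverse strand of chromosome 11 from 30099395 to 30268175. Ank1 lies on the forward strand of chromosome 8 from 22974844 to 23150497, Ank2 on the reverse strand of chromosome 3 from 126921612 to 127499350, and Ank3 on the forward strand of chromosome 10 from 69398773 to 70027438. The sources used here do not give the authors' build. Exons of Sptbn4, Sptbn1, Ank1 and Ank2 overlap an antisense gene, and use of strand in counting is not given either, so reads of such partners could not be told apart from theirs.

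Levels are CPM, the counts of a gene scaled to a common library total, after TMM scaling, which corrects for library composition. A library held between 15.03 and 25.31 M estimated counts, and the scarcest of the 6 genes, Ank1, still had 548 to 1213 counts in each library. Markers of hippocampal neurons were present in every library (Neurod6 at 167 to 289 CPM, Prox1 at 81.1 to 154 CPM). In 6 libraries, S-V 2 and 4, D+V 2 and 5, and D-V 3 and 4, the choroid plexus gene Ttr was above 1000 CPM, and the summed CPM of 10 choroid plexus markers ran from 92.14 to 1099 in Control, 132.9 to 4212 in the S-V libraries, 67.79 to 9161 in D+V and 91.73 to 10930 in D-V. Red blood cells use Ank1 themselves, and the summed CPM of 7 measured red blood cell markers ran from 482.8 to 643.2 in Control, 603.4 to 995.7 in the S-V libraries, 386.8 to 3194 in D+V and 918.3 to 1753 in D-V. In each library less RNA per cell and fewer cells of a type cannot be told apart.

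Per kilobase of transcript, the alpha chain Sptan1 was highest at 136.8 ± 11.6 CPM per kb (mean ± SD, n = 18 libraries), followed by Sptbn1 at 88.37 ± 10.6, Ank2 at 32.82 ± 5.19, Ank3 at 31.29 ± 5.74, Sptbn4 at 18.01 ± 1.88 and Ank1 at 4.773 ± 0.634. Ank2 and Ank3 differed by less than their spread, and the lengths used are those of single annotated transcripts, so these values depend on the transcript form. The highest library was 1.32 times the lowest for Sptan1, 1.46 times for Sptbn4, 1.52 times for Sptbn1, 1.59 times for Ank1, 1.65 times for Ank2 and 1.83 times for Ank3.

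**Figure D1:**
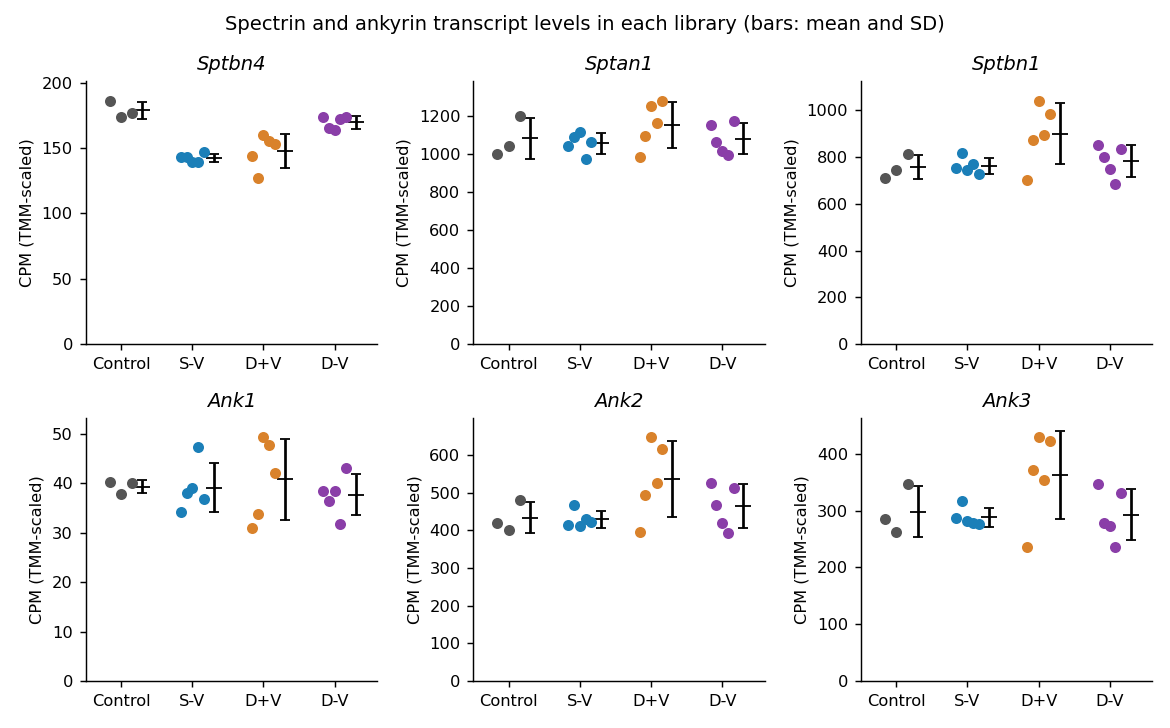
Each panel plots one gene, with TMM-scaled CPM on an axis from 0 and the libraries of the 4 groups as points. Bars give the mean and SD of the group (n = 3 in Control and n = 5 in the others). Sptbn4 is low in all S-V and D+V libraries, and Sptbn1, Ank2 and Ank3 are high in 4 of 5 D+V libraries.

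Sptbn4, the beta chain of initial segments and nodes, was lower in both S-V and D+V than in Control, and in D-V its level lay near Control. In Control it was at 186.3, 173.6 and 177.0 CPM. The S-V libraries held 143.2, 142.9, 139.6, 139.0 and 146.7 CPM. The D+V libraries held 144.0, 127.2, 159.8, 155.2 and 152.8 CPM. All 10 of these libraries lay below the lowest control, with D+V 2 the lowest of the 18. In D-V the values were 173.8, 165.0, 163.4, 172.0 and 173.4 CPM, above every S-V and every D+V library, and 4 of the 5 were below all controls.

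The group means of Sptbn4 were 179.0 ± 6.56 CPM in Control (mean ± SD, n = 3), 169.5 ± 4.92 in D-V, 147.8 ± 12.8 in D+V and 142.3 ± 3.13 in S-V (mean ± SD, n = 5 each). In this order the ranges of Control and D-V overlapped, as did those of D+V and S-V, and a gap separated D-V from D+V. Against Control the log2 fold change was −0.33 (SE 0.06) in the S-V libraries, −0.28 (SE 0.06) in D+V and −0.08 (SE 0.06) in D-V. The first of these values chose the gene. With the 6 libraries rich in Ttr left out the values were −0.32, −0.21 and −0.06. All S-V libraries were below all controls for 5.74% of genes tested, and all D+V libraries for 3.96%. Of all genes 0% were called for S-V against Control, and for D+V against Control 0.908% (134 genes at an adjusted p under 0.05 in edgeR), where Sptbn4 was called among the falls. Both comparisons use the Control libraries that chose Sptbn4, so nothing is read from that call.

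The comparison of D-V with D+V asked what blocking vision changed under rotation in both directions, and it compares no library of the contrast that chose Sptbn4. The D-V mean of Sptbn4 was 14.7% higher, a log2 fold change of 0.20 (SE 0.05, 95% interval 0.08 to 0.31), and all 5 D-V libraries lay above all 5 D+V libraries, a pattern seen for 0.637% of genes tested. The unadjusted p in edgeR was 0.00174 and the adjusted p = 0.125 over 14763 genes, so the gene did not pass the test. That fit takes its spread from all 18 libraries, those of S-V and Control that chose the gene among them, and with only the D-V and D+V libraries in the fit the adjusted p = 0.366 (log2 0.19). DESeq2 called it (adjusted p = 0.0414), limma voom did not (adjusted p = 0.0597), and edgeR called it without D+V replicate 1 (log2 0.19, adjusted p = 0.0473). Over the alternatives tried the adjusted p ran from 0.0414 to 0.997, the last with the 6 libraries rich in Ttr left out (log2 0.16). edgeR called 0% of all genes in this comparison, with 2023 at an unadjusted p under 0.05, while DESeq2 called 261 and limma voom 819. Without D+V replicate 1 edgeR called 1230 of 14678 genes tested. Against S-V the log2 fold change of Sptbn4 in D-V was 0.25 (SE 0.05), with all D-V libraries above all S-V libraries, as for 1.15% of genes, and that value shares the S-V libraries with the contrast that chose the gene.

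Libraries differed in how they represented transcripts by base composition. Sptbn4, the most GC-rich of the 6, moved with that difference in one direction. Sptbn1, Ank2 and Ank3, the 3 lowest in G and C, moved in the other. These 3 were not far from the middle of the genes tested, at the 35.4, 43.8 and 39.4 percentiles of G and C. By length all 6 transcripts were among the longest, at the 94.1 to 99.4 percentiles. The tilt of a library was taken as the median log2 deviation of the 20% of genes lowest in G and C minus that of the 20% highest. It ran from −0.28 to −0.09 in Control, 0.02 to 0.12 in the S-V libraries, 0.06 to 0.20 in D+V and −0.20 to 0.06 in D-V, so that every S-V and D+V library was tilted towards AT-rich genes relative to every control. Across the 18 libraries the log2 CPM of Sptbn4 had Pearson's r of −0.70 (permutation p of 0.0016, adjusted over 6 genes to 0.0096) and Spearman's rho of −0.59 (permutation p of 0.011, adjusted to 0.018) with the tilt. Without the 2 libraries of most extreme tilt, Control 1 and D-V 4, r was −0.58, and after subtraction of group means it was −0.01, so the relation of Sptbn4 lay between groups. The 18 libraries include those of S-V and Control that chose Sptbn4, so its p-values here are no independent evidence. For Sptbn1 r was 0.62 and rho 0.65 (permutation p of 0.0067 and 0.0043, adjusted to 0.02 and 0.018), for Ank2 r was 0.54 and rho 0.60 (permutation p of 0.023 and 0.0097, adjusted to 0.035 and 0.018), and for Ank3 r was 0.54 and rho 0.58 (permutation p of 0.021 and 0.012, adjusted to 0.035 and 0.018). These 3 kept r of 0.51, 0.47 and 0.48 without the same 2 libraries and 0.59, 0.53 and 0.55 within groups. Sptan1 (r 0.43, rho 0.44, permutation p of 0.073 and 0.071, adjusted to 0.088 and 0.085) and Ank1 (r 0.23, rho 0.18, permutation p of 0.37 and 0.46) did not pass.

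Once the trends of each library on GC content and on transcript length were taken out, the log2 fold change of Sptbn4 against Control was −0.11 in the S-V libraries, −0.25 in D+V and −0.03 in D-V. On that scale D-V against D+V was 0.22 (adjusted p = 0.595) and D-V against S-V was 0.08. The value in S-V was then smaller than that in D+V. The mean differences of D+V against Control and D-V against D+V stayed near their size, while D+V against S-V turned from 0.05 to −0.14. The full separation of libraries was lost. D+V 1 (log2 CPM 7.45) then lay above every D-V library but D-V 4 (7.48). Both D+V 1 and D+V 4 (7.27) lay within the range of Control, 7.25 to 7.54. The S-V libraries ran from 7.20 to 7.38 and overlapped Control as well. In D+V 1 and 3, both tilted towards AT-rich genes, the removal moved the log2 CPM of Sptbn4 from 7.17 to 7.45 and from 7.32 to 7.08. Trends on GC content and on length were removed together, so the part of each was not tested. What set the tilt was not tested either.

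**Figure D2:**
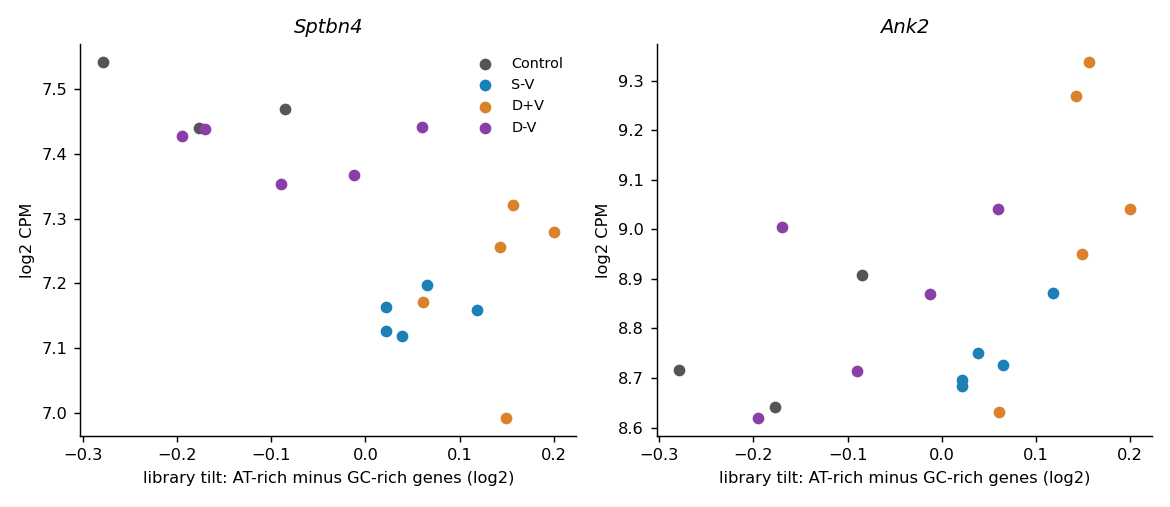
Each point is a library, with the tilt towards AT-rich genes on the x axis (log2) and the log2 CPM of Sptbn4 (left) or Ank2 (right) on the y axis, coloured by group. Controls lie at tilts of −0.28 to −0.09 and S-V libraries at 0.02 to 0.12, and the S-V libraries are all below the controls for Sptbn4.

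The alpha chain Sptan1, the partner of every beta chain named here, was not called by edgeR between rotated groups, and its group ranges overlapped. limma voom called it in D+V against S-V (log2 0.19, adjusted p = 0.049). Its mean was 1084 ± 107 CPM in Control (mean ± SD, n = 3), 1059 ± 56 in the S-V libraries, 1157 ± 121 in D+V and 1082 ± 80.8 in D-V (mean ± SD, n = 5 each). Against Control the log2 fold changes were −0.03 (SE 0.09) in the S-V libraries, 0.09 (SE 0.09) in D+V and −0.00 (SE 0.09) in D-V. Between rotated groups it was at −0.10 in D-V against D+V (95% interval −0.25 to 0.06, adjusted p = 0.616 in edgeR), 0.03 in D-V against S-V (−0.13 to 0.19, adjusted p = 0.969) and 0.13 in D+V against S-V (−0.03 to 0.29, adjusted p = 0.478).

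Sptbn1, the general axonal beta chain, was high in D+V and similar in the other 3 groups, with 1 exception in D+V. The summed CPM of 6 astrocyte markers was highest in D+V as well, at 3437, 4365, 4449, 3803 and 4509 in D+V 1 to 5, against 3148 to 3812 in Control, 3251 to 3839 in S-V and 3032 to 3769 in D-V. In D+V 2, 3 and 5 that sum was above all other groups, and D+V 1 was the lowest of the 5. The summed CPM of 8 neuron markers also had its highest median in D+V, at 5710, against 5008 in Control, 5250 in S-V and 5466 in D-V. In D+V 3 and 4 it was above all other groups, at 6050 and 5984, and in D+V 2 it was 4909. The parts of astrocyte and neuron RNA in the levels of Sptbn1, Ank2 and Ank3 were not tested. Sptbn1 was at 712.1, 743.0 and 811.4 CPM in Control. In S-V it was at 753.4, 817.5, 743.3, 767.9 and 726.8 CPM. In D+V it was at 699.4, 873.9, 1041, 893.4 and 984.3 CPM. The first D+V library was below all controls and the other 4 were above all controls and all S-V libraries. In D-V it was at 850.0, 800.8, 749.2, 684.6 and 834.7 CPM, on both sides of the range of Control.

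Ank2, ankyrin-B, had the same shape. Its values were 420.4, 399.5 and 480.2 CPM in Control and 414.6, 468.1, 411.3, 430.3 and 423.2 CPM in S-V. The D+V libraries held 396.4, 494.5, 647.1, 526.7 and 617.1 CPM, and those of D-V 526.5, 467.3, 419.8, 393.2 and 513.3 CPM. Again D+V 1 was below all controls and the other 4 above them.

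Ank3, the ankyrin-G that organises the initial segment, was at 284.8, 262.0 and 347.7 CPM in Control and at 286.7, 317.1, 280.8, 277.8 and 276.9 CPM in S-V. The D+V libraries held 236.3, 371.5, 429.2, 353.8 and 422.6 CPM and the D-V libraries 347.1, 278.3, 273.3, 235.1 and 330.9 CPM. Here too D+V 1 lay below all controls and the other 4 D+V libraries above all of them. Sptbn4, its partner at the initial segment, was below all controls in all 5 of these libraries.

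Against Control the log2 fold changes of these 3 genes in D+V were 0.25 (SE 0.10) for Sptbn1, 0.31 (SE 0.13) for Ank2 and 0.28 (SE 0.15) for Ank3. In S-V they were 0.01 (SE 0.10), −0.01 (SE 0.13) and −0.05 (SE 0.15), and in D-V 0.05 (SE 0.10), 0.10 (SE 0.13) and −0.03 (SE 0.15). With GC and length trends removed the D+V values were 0.08 for Sptbn1, 0.14 for Ank2 and 0.12 for Ank3.

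Between rotated groups edgeR called none of the 5 genes other than Sptbn4, against 0% of all genes called in each of the 3 comparisons. In D+V against S-V, which compared both directions with vision against 1 direction without, Sptbn1 was 17.9% higher (log2 0.24, SE 0.09, adjusted p = 0.282), Ank2 24.9% higher (0.32, SE 0.11, adjusted p = 0.266) and Ank3 26% higher (0.33, SE 0.13, adjusted p = 0.315). For each of them 4 of 5 D+V libraries were above all S-V libraries and D+V 1 was below all. Without D+V replicate 1 edgeR called all 3, at log2 0.32, 0.41 and 0.45 (adjusted p = 0.0109, 0.0113 and 0.0118), and limma voom with quality weights called them on all libraries. DESeq2 called none of the 6 there. With the 6 libraries rich in Ttr left out the values were 0.25, 0.34 and 0.28, with no call in edgeR. With GC and length trends removed the values were 0.07, 0.04 and 0.13. Over all genes 1917 had an unadjusted p under 0.05, and DESeq2 called 148 and limma voom 1942. Without D+V replicate 1 edgeR called 1455 of 14678 genes tested.

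In D-V against D+V Sptbn1 was at −0.20 (SE 0.09, adjusted p = 0.318), Ank2 at −0.21 (SE 0.11, adjusted p = 0.41) and Ank3 at −0.31 (SE 0.13, adjusted p = 0.307). Without D+V replicate 1 edgeR called Sptbn1 (−0.28, adjusted p = 0.0228) and Ank3 (−0.43, adjusted p = 0.0169), with Ank2 at an adjusted p of 0.0505. limma voom called the same 2 genes on all libraries. Over all genes edgeR called 1230 of 14678 without D+V replicate 1, and limma voom 819 on all libraries. With the 6 libraries rich in Ttr left out the values of the 3 genes shrank to −0.09, −0.06 and −0.09. With GC and length trends removed they were −0.04, 0.03 and −0.13. In D-V against S-V, which compared rotation in both directions with 1 direction while vision was blocked, the 3 genes were at 0.04 (95% interval −0.14 to 0.22), 0.11 (−0.12 to 0.34) and 0.03 (−0.25 to 0.30), with adjusted p = 0.96, 0.901 and 0.983. Over all genes 950 had an unadjusted p under 0.05 in that comparison, DESeq2 called 4 and limma voom 0.

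Ank1, ankyrin-R, was the scarcest, at 39.33 ± 1.39 CPM in Control (mean ± SD, n = 3), 39.11 ± 4.95 in the S-V libraries, 40.8 ± 8.18 in D+V and 37.7 ± 4.1 in D-V (mean ± SD, n = 5 each). Its D+V libraries spread from 31.02 to 49.32 CPM, around the 37.73 to 40.27 CPM of Control. Fold changes against Control were −0.01 (SE 0.14), 0.05 (SE 0.14) and −0.06 (SE 0.14) in S-V, D+V and D-V on the log2 scale. Between rotated groups its adjusted p ran from 0.734 to 0.964 in edgeR. Red blood cell markers differed more between libraries than Ank1 did, and their part in its level was not tested.

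**Figure D3:**
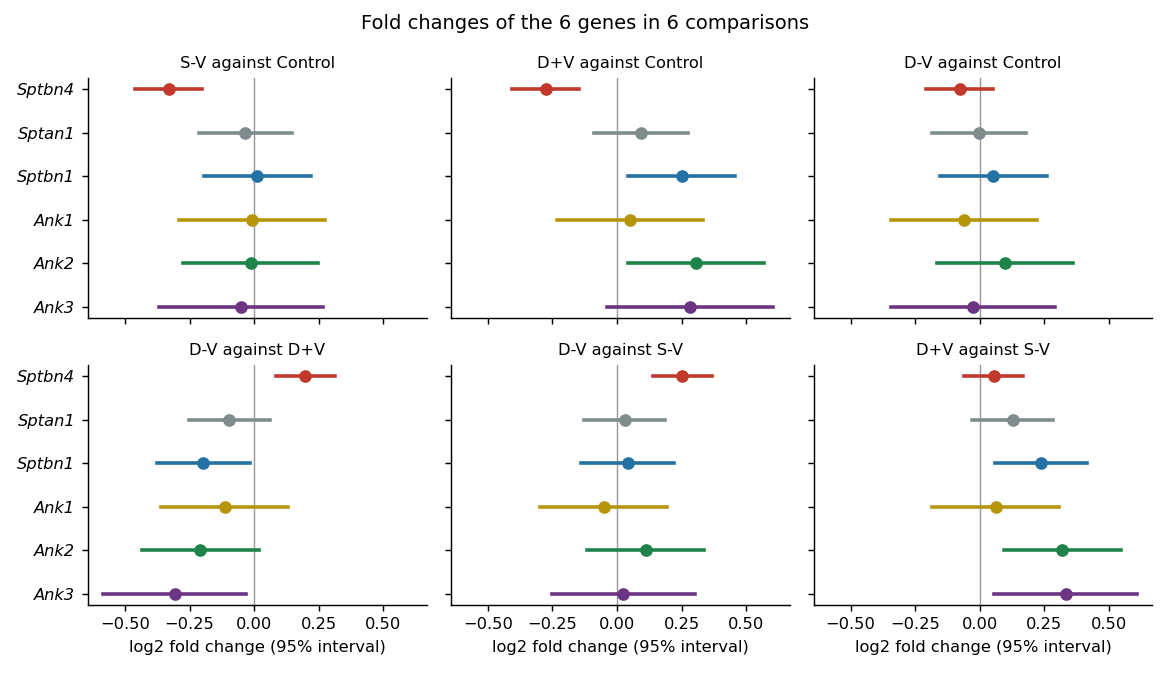
Points are log2 fold changes of the 6 genes from the edgeR fit, 1 panel per comparison, and lines are 95% intervals. Against Control, Sptbn4 lies below 0 for S-V (−0.33) and for D+V (−0.28), and it lies above 0 for D-V against D+V (0.20), where Sptbn1, Ank2 and Ank3 lie below 0.

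Across the 18 libraries Sptbn1, Ank2 and Ank3 varied together, and Sptan1 less closely with them (r of 0.86 to 0.89). With GC and length trends removed Sptan1 had r of 0.51 with Sptbn1, 0.62 with Ank2 and 0.29 with Ank3. Sptbn4 had r between −0.09 and 0.15 with the other 5. After subtraction of group means Sptbn4 had r of 0.39 with Sptan1, 0.31 with Sptbn1, 0.51 with Ank1, 0.45 with Ank2 and 0.26 with Ank3, higher than across groups for each. For Sptbn1 and Ank2 Pearson's r of log2 CPM was 0.97 and Spearman's rho 0.94 (permutation p of 1e-05 each, the smallest 100000 resamples can give, adjusted over 15 pairs to 2.5e-05 and 5e-05). Without the 2 libraries farthest from the median of Sptbn1 r was 0.94, after subtraction of group means it was 0.97, and with GC and length trends removed it was 0.79. For Ank2 and Ank3 r was 0.94 and rho 0.90 (permutation p of 1e-05 each), and r was 0.90 without the 2 farthest libraries and 0.39 with the trends removed. For Sptbn4 and Sptbn1 r was −0.09 (permutation p of 0.73) and rho −0.11 (permutation p of 0.66), with 0.14 without the 2 farthest libraries. For Sptbn4 and Ank3 r was −0.05 (permutation p of 0.83) and rho −0.04 (permutation p of 0.88), with 0.15 without the 2 farthest libraries and −0.57 with the trends removed. The genes share each library's depth and composition, which such correlations hold as well.

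**Figure D4:**
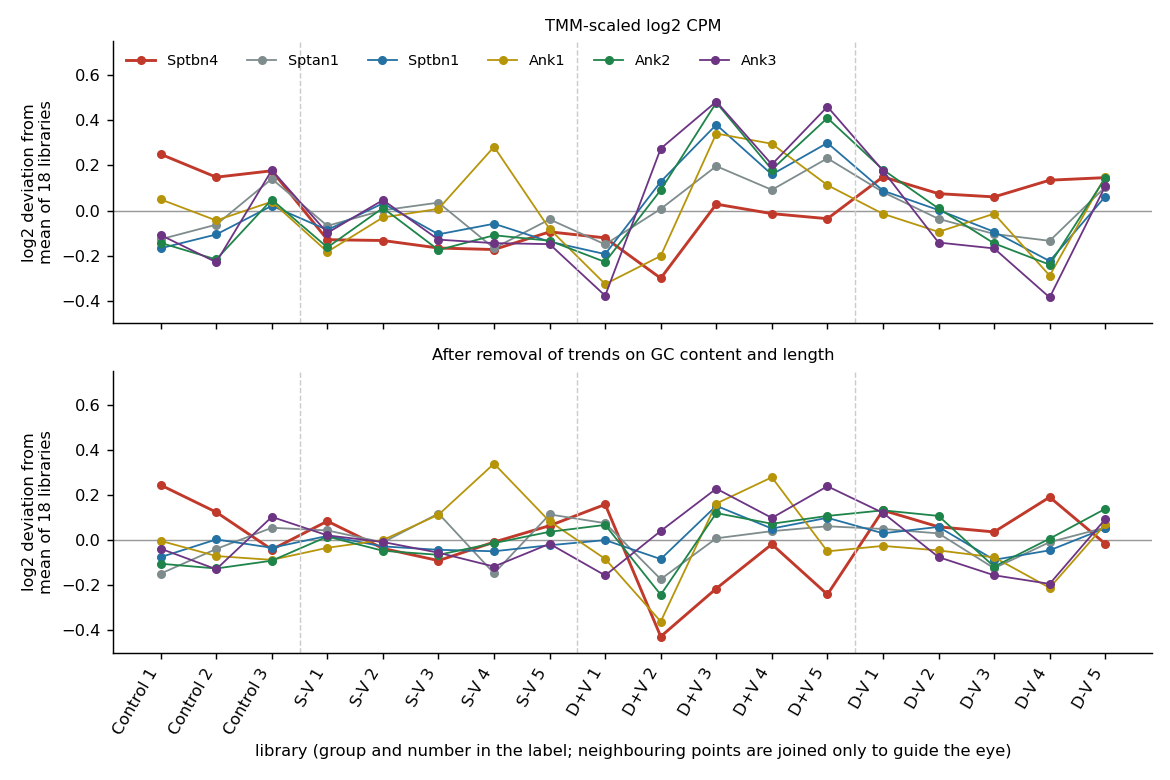
Lines show the log2 deviation of each gene from its mean over 18 libraries, as scaled (upper) and after each library was corrected for GC content and length (lower). In the upper panel Sptbn1, Ank2 and Ank3 move together, high in D+V 2 to 5 and low in D+V 1, while Sptbn4 is high in Control and D-V. In the lower panel the low Sptbn4 values of D+V lie in D+V 2, 3 and 5, and D+V 1 lies above the mean.

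The balance of the beta chains was read within each library, where depth and scaling cancel. Sptbn1 exceeded Sptbn4 by a log2 of 2.08 ± 0.13 in Control (mean ± SD, n = 3), 2.42 ± 0.08 in the S-V libraries, 2.60 ± 0.20 in D+V and 2.21 ± 0.12 in D-V (mean ± SD, n = 5 each). All S-V and all D+V libraries were above all controls. Both comparisons use the Control libraries that chose Sptbn4, so nothing is read from this separation. With GC and length trends removed the excess over Control went from 0.34 to 0.12 in S-V and from 0.52 to 0.34 in D+V, and 2 of 5 S-V and 4 of 5 D+V libraries stayed above all controls. In D-V the difference was 0.39 below D+V (exact permutation p of 0.0159, two-sided, adjusted over 9 differences to 0.0714, with 4 of 5 D-V libraries below all D+V libraries), which misses the threshold. Against S-V the D-V difference was −0.21, with 5 of 5 D-V libraries below all S-V libraries (exact permutation p of 0.00794, two-sided, the smallest this design allows, adjusted to 0.0714). That comparison shares the S-V libraries with the contrast that chose Sptbn4, so its p is no independent evidence. With the trends removed these values were −0.27 (exact permutation p of 0.0635, unadjusted) against D+V and −0.05 (exact permutation p of 0.413, unadjusted) against S-V. Sptbn1 to Sptan1 differed by −0.10 between D-V and D+V (exact permutation p of 0.0714, adjusted to 0.161) and Ank2 to Ank3 by 0.09 (exact permutation p of 0.135, adjusted to 0.173). None of the 9 adjusted values passed.

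The genes most like each of the 6 over the 18 libraries, by Pearson's r of log2 CPM among 12253 genes, were given by rule and without a test. Nearest to Sptbn4 were Dbn1 (0.93), which encodes the spine protein drebrin, Dhdds (0.91), an enzyme of dolichol synthesis, and Gpr162 (0.90), an orphan receptor. Sptan1 was most like Atrn (0.96), Scn8a (0.96), the sodium channel of initial segments and nodes, and Sort1 (0.95), a sorting receptor. Sptbn1 was nearest to Uhmk1 (0.98), Dock4 (0.97) and Myo5a (0.97), a myosin motor. Ank2 was nearest to Uhmk1 (0.98), Nrxn3 (0.97) and Pclo (0.97), both synaptic, and Ank3 to Grin2b (0.98), an NMDA receptor subunit, Kif1b (0.97), a kinesin, and Epg5 (0.97), an autophagy factor. Ank1 had weaker likeness, to Gramd2 (0.87), Ptprn2 (0.83) and Lgi2 (0.81).

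The proteins that spectrins and ankyrins hold or need were followed in 61 genes of 5 lists, of which 60 were tested and 1 was too scarce. In edgeR only D+V against Control gave calls: 2 of the 60 rose and 0 fell, where 108 of all 14763 genes rose and 26 fell. Both belong to the 22 genes of the initial segment and node. Fgf12, a protein that binds sodium channels, went from 63.51 ± 3.59 CPM in Control (mean ± SD, n = 3) to 83.46 ± 7.97 in D+V (mean ± SD, n = 5, log2 0.39, SE 0.09, adjusted p = 0.0424 in edgeR). For Fgf12 5 of 5 D+V libraries lay above all controls, as for 3.67% of genes tested. Cntn1, the adhesion molecule contactin of nodes, went from 310.8 ± 39.8 to 406.5 ± 44.8 CPM (log2 0.39, SE 0.09, adjusted p = 0.0412 in edgeR), with 4 of 5 above. Neither was called with GC and length trends removed or with the 6 libraries rich in Ttr left out, where edgeR called 0 of all genes. In S-V they were at 0.20 and 0.17 and in D-V at 0.20 and 0.20, with no call. The lists were chosen with earlier results of these libraries known, so the p-values of partner genes are no independent evidence.

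Of the 22 initial segment and node genes 15 were positive in D+V, with a median log2 fold change of 0.17, where the median of all genes was −0.00. In S-V 7 were positive with a median of −0.07, and in D-V 12 with a median of 0.01. Of all 14763 genes 7310 were positive in D+V, 7472 in S-V and 7581 in D-V. Such list values were not computed with GC and length trends removed. Mapre3, a microtubule end-binding protein of the EB family, was at −0.22 in D+V (SE 0.06, adjusted p = 0.0733), −0.11 in S-V and −0.05 in D-V. Apart from Fgf12 and Cntn1, edgeR called none of the 22 in D+V, and channels and adhesion molecules stood on both sides of 0. Scn2a was at 0.40 (SE 0.14, adjusted p = 0.144) and Nrcam at 0.38 (SE 0.12, adjusted p = 0.1) in D+V, and Nfasc was at −0.00 (SE 0.09).

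The 16 genes of the junction between spectrin and actin had a median of 0.02 in D+V, 0.04 in S-V and 0.04 in D-V. Dmtn, which bundles actin, was at −0.26 in D+V (SE 0.07, adjusted p = 0.0779), −0.13 in S-V and −0.10 in D-V. Tmod2, which caps actin filaments in neurons, was at 0.39 (SE 0.12, adjusted p = 0.109), 0.14 and 0.14 in the same order. Add3, an adducin, was at 0.23 (SE 0.08, adjusted p = 0.151), 0.11 and 0.05.

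The 8 transporters and channels bound by ankyrins had a median of −0.05 in D+V, −0.12 in S-V and −0.06 in D-V. Atp1b2, a beta subunit of the sodium pump, was at −0.14 in S-V (SE 0.07, adjusted p = 0.371), −0.17 in D+V and −0.11 in D-V, and Slc8a2, a sodium-calcium exchanger, at −0.20, −0.28 and −0.18. In the list of 11 genes of spectrin cleavage and modification, Zdhhc8, a palmitoyl transferase, was at −0.30 in S-V (SE 0.11, adjusted p = 0.227), −0.26 in D+V and −0.14 in D-V, and Usp9x, a deubiquitinase that acts on ankyrin-G, at −0.01, 0.35 and 0.04. Among the other spectrins Sptb, the beta-I chain, was at −0.16, 0.02 and −0.15, and Sptbn5 was scarce at 0.5636 ± 0.255 CPM in Control. edgeR called no gene of these 4 lists.

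**Figure D5:**
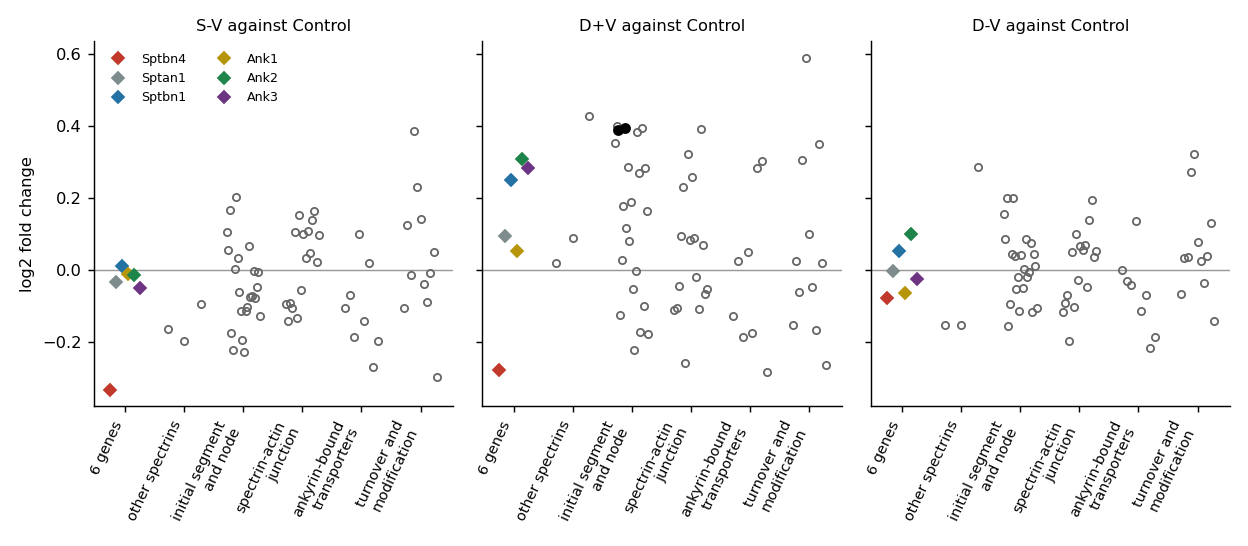
Each panel is a comparison with Control and plots log2 fold changes of the 6 genes (diamonds) and of the 60 tested partner genes (circles, by list), with called genes filled. The 2 filled circles in D+V against Control are Fgf12 and Cntn1.

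For D-V against Control edgeR called 0% of genes, with 916 at an unadjusted p under 0.05, DESeq2 3 and limma voom 0. For S-V against Control 2017 were at an unadjusted p under 0.05, with 216 called by DESeq2 and 318 by limma voom. Between rotated groups edgeR called 0 of the 60 partner genes. In D-V against D+V DESeq2 called 1 of them and limma voom 14, in D+V against S-V DESeq2 called 1 and limma voom 22, and in D-V against S-V both called 0. Over all genes DESeq2 called 261, 148 and 4 in the same order, and limma voom 819, 1942 and 0. Of the initial segment and node genes 18 of 22 were positive in D+V against S-V, with a median of 0.19, and 17 of 22 were negative in D-V against D+V, with a median of −0.14, where the medians of all genes were −0.00 and 0.01. Of all 14763 genes 7221 were positive in D+V against S-V and 7045 negative in D-V against D+V. Both values of the list rest on the D+V libraries, and neither was computed with GC and length trends removed.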

How the data were processed

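Estimated counts per gene were deposited by the authors as a table of 22063 genes with a column for each of 18 libraries, and 7.35% of the values were not whole numbers. Per the labels' protocols, Trizol was used for extraction, oligo(dT) beads for enrichment of mRNA and a NEBNext Ultra kit for the libraries. The tools named, per the submitters' processing notes, were HISAT2, DESeq2, StringTie 1.3.1 and Bowtie2 2.2.8, without their roles. The sources used here do not give aligner settings, build, annotation or strand use. Genes without a symbol (90) held 0.0562% of counts.

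The estimated counts were rounded, genes with too few counts were removed by filterByExpr (14763 kept, with 99.97% of counts) and TMM scaling was applied. All 18 libraries entered a single fit of 4 group means in edgeR 4.0.16 (R 4.3.3, quasi-likelihood test), tested on simulated data, with Benjamini-Hochberg adjustment over all genes and a threshold of 0.05. Common biological variation was 15.4%. Alternatives were other scaling, filters, DESeq2 1.42.0, limma 3.58.1 voom with quality weights, a fit of only the groups compared, a replicate block, removal of GC and length trends (a spline with 4 degrees of freedom, on GENCODE M21 transcripts found for 99.6% of genes), a choroid plexus score, each library left out, and, chosen after seeing the data, 6 libraries with Ttr above 1000 CPM left out and within-library differences with the trends removed. Log2 CPM used a prior count of 2. Proteins were aligned with Biopython 1.88 and permutation tests used SciPy 1.17.1. Partner genes were named as the 3 with the smallest p of each list in any comparison with Control, and any called. Scn2a, Nrcam and Nfasc were named in addition, outside this rule. The 6 genes and all lists were chosen with earlier results of these data known. Some genes and 1 sequence that these rules would name are not reported here.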

Additional observations from a re-analysis of the deposited data

Results flagged for a closer look

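In S-V the second library had an Ank3 level of 317.1 CPM, apart from the other 4 at 276.9 to 286.7 CPM. Its gap to the nearest of them was 0.756 of the range of the group. Of 27 groups of values checked in this way 1 stood out, and chance gives about 1 in 20. The library is also one of the 6 rich in Ttr. Whether the 2 are related was not tested.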

How the results depend on the processing

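Sptbn4 against Control kept its sign in every alternative run, at −0.37 to −0.11 in S-V, −0.32 to −0.21 in D+V and −0.11 to −0.03 in D-V. With GC and length trends removed it was −0.11 in S-V (−0.117 with the replicate block as well), Ank2 in D-V against D+V turned to 0.026 (0.027), Ank3 in D-V against S-V to −0.002 (−0.004), Sptan1 to −0.025 (−0.023) in D-V against S-V and to −0.022 (−0.021) in D+V against S-V, Sptbn4 in D+V against S-V from 0.054 to −0.139 (−0.148), and Ank1 in D+V against S-V to −0.099 (−0.105). Without the 6 libraries rich in Ttr, Ank1 in D-V against S-V turned to 0.108. The cause was not tested.

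Of the 60 partner genes, 2 were called in D+V against Control, and 0 with the trends removed (alone or with the block), with the replicate block, with no filter, with only the 2 groups compared and without the 6 libraries, 7 by DESeq2 and 20 by limma voom. Over all genes in that comparison 134 were called in the main fit, 5 with the replicate block and 60 with no filter. None of all genes was called with the trends removed (alone or with the block), with only the 2 groups compared or without the 6 libraries. DESeq2 called 731 of all genes and limma voom 1882. In D-V against D+V DESeq2 called 1 partner and 1 member (Sptbn4, at 0.193) and limma voom 14 partners and 2 members. In D+V against S-V DESeq2 called 1 partner, and limma voom 22 partners and 4 members. Over all genes DESeq2 and limma voom called 261 and 819 in D-V against D+V, and 148 and 1942 in D+V against S-V. In D-V against S-V DESeq2 called 1 member, Sptbn4, and 4 of all genes. That comparison uses the S-V libraries that chose Sptbn4, so nothing is read from the call.

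With a library left out, partner calls ran from 0 to 16 in D+V against Control, 0 to 17 in D-V against D+V and 0 to 16 in D+V against S-V, with the highest values without D+V replicate 1. Members called ran from 0 to 3 in the last 2 comparisons. Without D+V replicate 1 edgeR called 1288, 1230 and 1455 of 14678 genes tested in these comparisons, in the order above. Sptbn4 in D-V against D+V ran from 0.148 to 0.227. In D-V against S-V Sptan1 ran from −0.002 to 0.060, Ank1 from −0.106 to 0.022 and Ank3 from −0.043 to 0.095, and in D+V against S-V Ank1 from −0.014 to 0.146. Within libraries, Sptbn1 to Sptan1 in D-V against S-V ran from −0.021 to 0.041 and Ank2 to Ank3 in D+V against S-V from −0.046 to 0.037.

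Labels share replicate numbers, but same-numbered libraries did not deviate together (median r 0.0075 over 24 pairs, 9 above 0.1, against 0.0075 over 96 other pairs), so the numbers were not used to pair them. With the replicate block the 2 partner calls fell to 0, while those of all genes in D+V against Control fell from 134 to 5. Sptbn4 in D-V against D+V was then 0.200 (adjusted p = 0.167 in edgeR). Precision is limited by 3 controls, by counting error and by PCR copies without molecular identifiers.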
